A study of Homo sapiens with 83 samples.

Results

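The genes examined here encode RNA polymerase I (Pol I), RNA polymerase III (Pol III) and the factors that bring both enzymes to their templates. Members were chosen by gene symbol: the subunit genes of both enzymes, the 5 subunits that all 3 nuclear polymerases share, the Pol I initiation factors, the TFIIIA, TFIIIB and TFIIIC genes and the repressor gene MAF1. Of 43 such symbols, 37 were listed among the 60237 genes measured, and 6 (POLR1F, POLR1G, POLR1H, POLR3I, POLR3J and POLR3CL) were not. By Ensembl identifier, POLR1F, POLR1G and POLR1H were present under the symbols TWISTNB, CD3EAP and ZNRD1, and their values are given apart from those of the members. The study asks how N-MYC acts on rhythmic and overall gene expression. The libraries came from the human neuroblastoma cell lines SHEP and SKNAS, both carrying N-MYC-ER. This protein joins N-MYC to the hormone-binding part of the estrogen receptor and acts only once 4-hydroxytamoxifen (4OHT) is added. MYC-ON cells received 4OHT and MYC-OFF cells the ethanol vehicle, so the inactive fusion was present in the MYC-OFF cells too, and every group was given dexamethasone, which sets the cell clocks to a common phase. Polyadenylated RNA was then taken at 4 h intervals from circadian time (CT, hours after dexamethasone) 24 to 76. SHEP had 2 series and 28 libraries per condition. SKNAS had 1 series, with 14 libraries for MYC-OFF and 13 for MYC-ON, which ended at CT72. The time points of a series share its cells, so p-values measure the spread between these libraries, and for SKNAS a second series was not analysed here.

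Pol I has a single kind of template, the ribosomal DNA repeats, from which it makes the precursor of the large ribosomal RNAs. Pol III makes short RNAs, among them the tRNAs and the smallest ribosomal RNA, and reads most of its templates through TFIIIC, which binds inside the gene and places TFIIIB at its start. MYC proteins are known to raise the output of both enzymes, and N-MYC is the amplified family member in aggressive neuroblastoma. Pol III exists in alternative forms that carry either POLR3G or its paralog POLR3GL: POLR3G is known for stem cells and tumours, and POLR3GL for differentiated tissue. The products of Pol I and Pol III are largely not polyadenylated, so these libraries hold the messages for the machinery and say nothing of its output.

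Expression is given as TPM, a length-corrected abundance that is scaled to the same sum in every library. The files therefore do not give the depth of each library, and single values carry no counting interval. The median log2(TPM + 1) over tested genes lay between 3.93 and 4.17 in the SHEP libraries, but between 2.97 and 4.38 in SKNAS MYC-OFF and between 2.76 and 4.26 in SKNAS MYC-ON. A median of at least 3.8 was found for 10 MYC-OFF and 3 MYC-ON libraries of SKNAS, and these medians move with several SKNAS results. Bulk libraries cannot tell fewer cells of a kind from less RNA per cell. MYCN, whose TPM can include reads of the fusion, was between 406 and 688 TPM in the MYC-OFF cells of SHEP and between 255 and 515 in their MYC-ON cells. In SKNAS it ran from 29.1 to 987 TPM without 4OHT and from 13.1 to 1046 with it. Of the adrenergic neuroblastoma markers, TH and DBH reached at most 2.88 TPM, and PHOX2A was found in SKNAS (139.5 to 287 TPM in MYC-OFF, 37.5 to 118 in MYC-ON) and was at most 0.0419 TPM in SHEP; VIM, a mesenchymal marker, was at 2760 to 4659 TPM in SHEP and 601 to 2321 in SKNAS. PTPRC, a marker of blood cells, stood at 13 to 132 TPM in SKNAS MYC-OFF and 3.13 to 59.7 in SKNAS MYC-ON, and at no more than 0.0118 TPM in SHEP; its part in the SKNAS results was not tested. PECAM1 and EPCAM, markers of endothelium and epithelium, did not exceed 0.440 and 2.46 TPM in any library.

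MYC and the clock factors CLOCK and BMAL1 bind the same core letters, the E-box CACGTG, and MYC also binds the variant CACGCG. The promoter windows of 30 members (250 bases before to 50 after the start, RefSeq, GRCh38.p14) were searched for these 6-letter words on both strands; matches of the words may share bases, and CACGTG reads the same on both strands. CACGTG was present in 6 of the 30 windows (20.0%), against 7.43% of 27305 promoters and 10.2% of the promoters of genes tested in SHEP, and CACGCG in 11 (36.7%), against 11.4% and 18.6%. The 6 with CACGTG were POLR3A, POLR3E, GTF3C2 and GTF3C4, which rose in SHEP MYC-ON, and POLR3C and GTF3C6, which were not called. Of the 11 with CACGCG, POLR1A, POLR1C, POLR3E, POLR3K, RRN3, TAF1C, GTF3C3 and GTF3C4 rose in SHEP MYC-ON. UBTF, which holds it at base -15, fell there, and POLR2L and POLR3C were not called. POLR1E, POLR2K, POLR3D, POLR3G, BRF2 and MAF1 are among the members without a window. The windows of 3 of those that rose, and that of POLR3GL, which holds neither word and fell, are shown 5′ to 3′ on the gene's strand with each match in capitals.
POLR3A (chr10:78029466-78029765, minus strand): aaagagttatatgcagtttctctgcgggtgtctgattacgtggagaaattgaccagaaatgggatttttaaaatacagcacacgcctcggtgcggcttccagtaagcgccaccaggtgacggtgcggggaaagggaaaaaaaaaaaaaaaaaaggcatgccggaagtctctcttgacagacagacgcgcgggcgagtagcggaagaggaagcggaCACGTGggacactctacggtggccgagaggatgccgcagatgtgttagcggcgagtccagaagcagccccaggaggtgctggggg
POLR3E (chr16:22297159-22297458, plus strand): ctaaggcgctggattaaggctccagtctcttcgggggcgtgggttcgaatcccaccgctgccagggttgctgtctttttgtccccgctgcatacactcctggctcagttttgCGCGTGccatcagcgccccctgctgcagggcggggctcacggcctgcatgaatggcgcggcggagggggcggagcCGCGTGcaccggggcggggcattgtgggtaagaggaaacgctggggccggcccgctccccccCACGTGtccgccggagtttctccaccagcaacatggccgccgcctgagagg
GTF3C4 (chr9:132669785-132670084, plus strand): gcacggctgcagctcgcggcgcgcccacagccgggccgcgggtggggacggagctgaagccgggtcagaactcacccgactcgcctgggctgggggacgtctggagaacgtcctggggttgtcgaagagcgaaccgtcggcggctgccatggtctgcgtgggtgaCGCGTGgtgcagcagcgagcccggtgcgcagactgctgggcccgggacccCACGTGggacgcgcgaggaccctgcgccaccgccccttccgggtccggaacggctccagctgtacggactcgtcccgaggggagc
POLR3GL (chr1:145964440-145964739, plus strand): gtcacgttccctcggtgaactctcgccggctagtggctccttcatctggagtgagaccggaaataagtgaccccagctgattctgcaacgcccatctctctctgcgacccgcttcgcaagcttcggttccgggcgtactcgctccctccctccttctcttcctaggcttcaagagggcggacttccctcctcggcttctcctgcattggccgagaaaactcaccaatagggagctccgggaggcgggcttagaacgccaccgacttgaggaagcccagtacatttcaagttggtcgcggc
In POLR3A and GTF3C4 the word CACGTG began at base -35 from the start, and in POLR3E at base -1, with CACGCG matches at -138 and -63. The first 63 of the 300 bases shown for POLR3E belong to TRL-AAG2-4 (chromosome 16, 22297140 to 22297221), a leucine tRNA gene and thus itself a Pol III template; 26 of the 27305 windows (0.0952%) shared bases with a tRNA gene. A strict form of the B box, the motif that TFIIIC reads in tRNA genes, occurred on either strand in the windows of POLR3E and TAF1C and in 0.198% of all windows. A match describes letters only and is not evidence of binding. POLR1B, POLR2H and GTF3A, which were among the members with the largest rises in SHEP, hold neither E-box word in this window. BRF1, GTF3C5, POLR1D, POLR2F, POLR3F, TAF1A and TAF1D also hold neither word and rose in SHEP MYC-ON. BDP1, GTF3C1, POLR2E, POLR3B and TAF1B hold neither and were not called. Of all members, 64.9% were called higher there with or without a word, and a link of the words to the rises was not tested.

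With N-MYC-ER active, most genes of the machinery rose in SHEP. A call needed an adjusted p (limma, Benjamini-Hochberg over all genes tested) no larger than 0.05 and a difference of at least 0.15 on the log2(TPM + 1) scale. In SHEP, 24 of the 37 members were called higher (64.9%, against 33.0% of 14362 genes tested), 3 were called lower (8.11%, against 38.9%) and 10 were not called. A rise of at least 0.66, about 1.5-fold, was found for 9 members, against 9.39% of all genes, and no member fell that far, against 11.4%. The members' median log2 difference was 0.37 and that of all genes tested was -0.04. In 7 members (POLR1B, POLR1E, POLR3A, POLR3E, POLR3G, GTF3A and POLR2H) the lowest MYC-ON library lay above the highest MYC-OFF library, a separation shown by 6.11% of all genes; the reverse was seen in no member and in 6.36% of all genes.

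**Figure D1:**
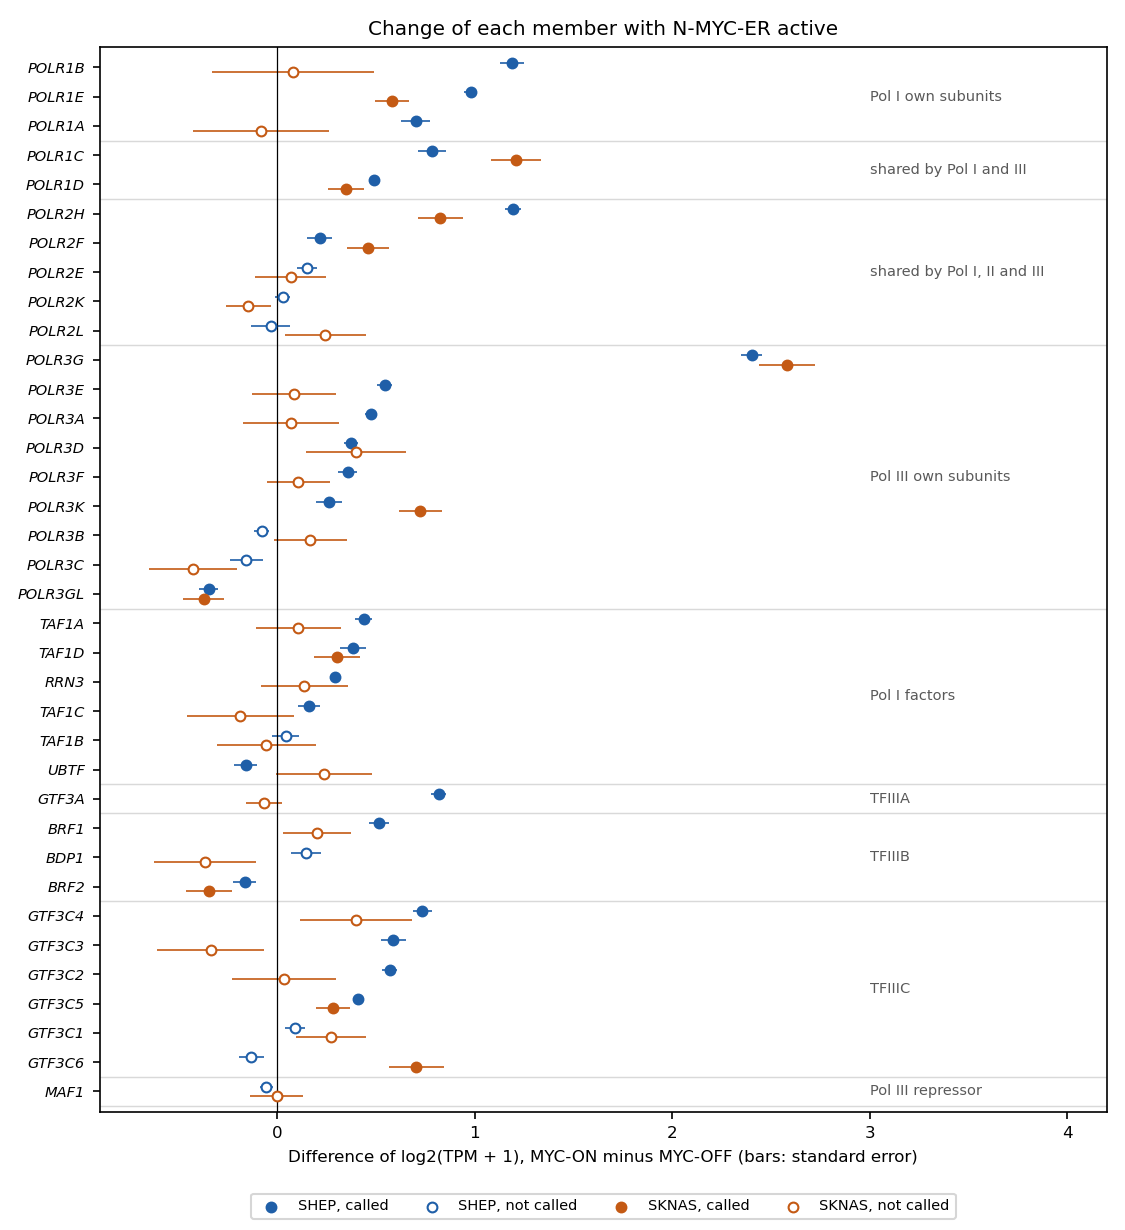
Difference of log2(TPM + 1) between MYC-ON and MYC-OFF for the members reported here, grouped by role, in SHEP (blue, 28 libraries a condition) and SKNAS (orange, 14 and 13 libraries), with the standard error as bars and filled points for called members. POLR3G stands far to the right in both lines, at 2.40 and 2.58, most SHEP points lie above 0, and the SKNAS bars are wider.

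All 3 of the listed genes for subunits found only in Pol I rose in SHEP. POLR1B, the second-largest subunit, was at 21.8 to 44.1 TPM (median 34.6) in MYC-OFF and 57.2 to 97.5 (median 77.5) in MYC-ON, and the groups did not overlap. Its log2 difference was 1.19 ± 0.0597 (SE; limma adjusted p = 6.70e-23), with a higher value in 28 of 28 same-series, same-CT pairs. POLR1E, a partner in a heterodimer that only Pol I carries, rose by 0.98 ± 0.0305 from a median of 33.9 TPM to 70.5. POLR1A, the largest subunit, rose by 0.70 ± 0.0752, from 17.5 to 28.5 TPM in the median, and was higher in 28 of 28 pairs although the ranges overlapped. Of the Pol I genes listed under older symbols, CD3EAP rose by 1.02, ZNRD1 by 0.37 and TWISTNB by 0.34.

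Both subunits shared by Pol I and Pol III rose in both lines. POLR1C went from a median of 64.1 to 122.8 TPM in SHEP (0.78 ± 0.0718, higher in 27 of 28 pairs). In SKNAS its range was 37.5 to 79.1 TPM in MYC-OFF and 80.7 to 146.6 in MYC-ON, so that the groups did not overlap, and the difference was 1.21 ± 0.126 (limma adjusted p = 1.77e-06). POLR1D rose by 0.49 ± 0.0283 in SHEP and by 0.35 ± 0.0904 in SKNAS. Of the 5 subunits that Pol I, Pol II and Pol III have in common, only POLR2H and POLR2F passed the test, in SHEP and in SKNAS alike. POLR2H was at 68.1 to 100.5 TPM (median 83.8) in SHEP MYC-OFF and 138 to 229 (median 192) in MYC-ON, a difference of 1.19 ± 0.0411, and in SKNAS its median went from 299 to 599 TPM, a difference of 0.83 ± 0.115 that was positive in 13 of 13 pairs although the ranges overlapped. POLR2F rose by 0.21 ± 0.0635 in SHEP and 0.46 ± 0.105 in SKNAS, but was not called in SHEP without the first series (0.14) or among the 13 SKNAS libraries with a median of at least 3.8 (0.05). POLR2E, POLR2K and POLR2L had SHEP differences of 0.15, 0.03 and -0.03 and were not called. POLR2E passed the adjusted p (limma, 0.0059) and missed the size threshold. The SHEP means of POLR2F, POLR2E and POLR2L were higher in MYC-ON than in MYC-OFF over the first 4 time points. Over the last 4 they were lower. CD151, on the other strand, covers 22.8% of the exonic bases of POLR2L, and whether counting used the strand is not given in the sources used here.

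Among the 10 listed genes for subunits found only in Pol III, 7 rose in SHEP, POLR3GL fell, and POLR3B and POLR3C were not called. POLR3G (chromosome 5, 90471748 to 90514557, plus strand, GRCh38) changed most of all members. In SHEP it was at 11.9 to 20.6 TPM (median 15.1) in MYC-OFF and 62.1 to 105.7 (median 84.7) in MYC-ON. In SKNAS it was at 5.74 to 14.9 TPM (median 9.74) in MYC-OFF and 40.7 to 111 (median 66.8) in MYC-ON. No library of either line crossed between the groups. The log2 difference was 2.40 ± 0.0523 in SHEP (limma adjusted p = 5.49e-37) and 2.58 ± 0.143 in SKNAS (limma adjusted p = 5.37e-09), and the difference between the lines, 0.18 ± 0.115, was not called (adjusted p = 0.186). POLR3GL (chromosome 1, 145964690 to 145978848, plus strand, GRCh38) moved the other way and less. In SHEP it was at 23.2 to 33.0 TPM (median 28.7) without 4OHT and 14.4 to 33.3 (median 22.3) with it, and at 39.8 to 54.6 (median 48.5) and 26.5 to 48.6 (median 37.5) in SKNAS. These ranges overlap, and the log2 differences were -0.35 ± 0.0477 in SHEP (lower in 24 of 28 pairs; limma adjusted p = 9.91e-09) and -0.37 ± 0.103 in SKNAS (lower in 11 of 13 pairs; limma adjusted p = 0.00802). In SKNAS this fall was no longer called after median-of-ratios rescaling, which put it at -0.01. Another annotated gene on the same strand shares 21.1% of POLR3GL's exonic bases, so reads there could have been divided between both.

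The remaining Pol III subunits moved less than POLR3G. POLR3E and POLR3A, the latter being the catalytic largest subunit, rose in SHEP by 0.54 ± 0.0381 and 0.47 ± 0.0287, each in 28 of 28 pairs and without overlap between the groups. POLR3D, POLR3F and POLR3K rose in SHEP by 0.37, 0.36 and 0.26, and POLR3K also in SKNAS, by 0.72 ± 0.108; in SHEP POLR3K was not called without the first series, at 0.17. POLR3B, the second-largest subunit, and POLR3C, which with POLR3F and POLR3G or POLR3GL forms the trimer that contacts TFIIIB, had SHEP differences of -0.08 and -0.16 and were not called. In POLR3C the SHEP series differed: its MYC-ON median was 18.8 TPM in the first series and 25.3 in the second, against 22.8 and 23.5 in MYC-OFF, and without the second series its fall of 0.40 was called, while without the first its difference was 0.09.

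The balance between POLR3G and POLR3GL reversed with N-MYC-ER active. The log2 ratio of POLR3G to POLR3GL TPM in SHEP was between -1.23 and -0.33 (median -0.92) without 4OHT and between 1.12 and 2.42 (median 2.05) with it. In SKNAS it was between -3.14 and -1.77 (median -2.32) in MYC-OFF and between 0.31 and 1.61 (median 0.73) in MYC-ON. Thus POLR3GL was the more abundant message in every MYC-OFF library and POLR3G in every MYC-ON library. As a share of the summed TPM of both, POLR3G made up 34.9% ± 3.67 (SD, n = 28) of the SHEP pool without 4OHT and 79.0% ± 4.43 (SD, n = 28) with it. The SKNAS shares were 17.1% ± 3.71 (SD, n = 14) and 63.3% ± 6.10 (SD, n = 13). Between same-CT pairs the log2 ratio rose by 2.84 ± 0.0822 (SE) in SHEP, in 28 of 28 pairs, and a two-sided sign-flip permutation test over pairs gave p = 2e-05, the smallest value 100000 resamples can give. In SKNAS it rose by 3.08 ± 0.16 (SE), in 13 of 13 pairs, and the exact test over 8192 sign patterns gave p = 0.000244, the smallest it allows. The rise was 0.25 larger in SKNAS than in SHEP (permutation of the line over pairs, two-sided, p = 0.135). Both genes were measured in the same library, so a scaling of the whole library leaves the ratio as it is.

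**Figure D2:**
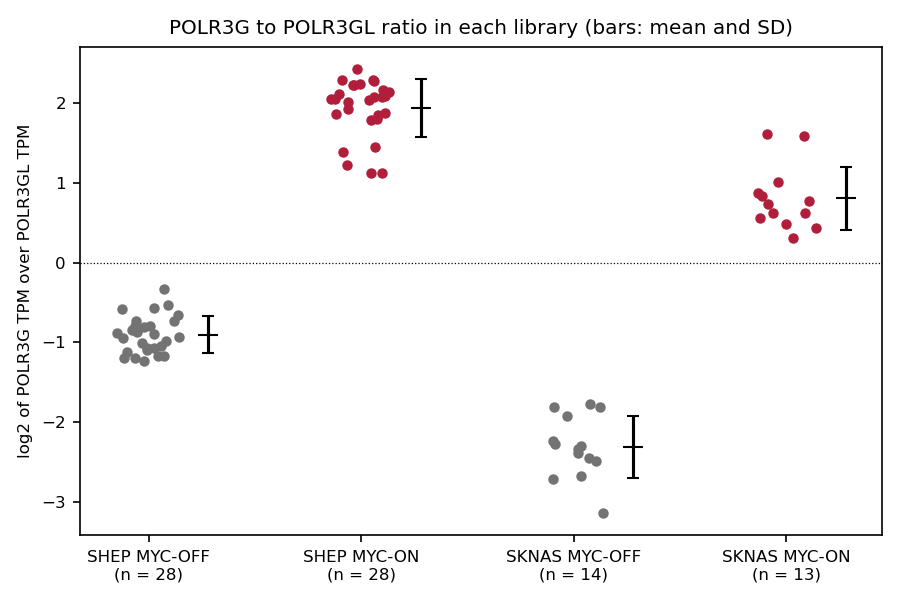
The log2 of POLR3G TPM over POLR3GL TPM in each library (points), with the group's mean and SD beside it (bars), for the 4 groups. The dotted line marks equal TPM: every MYC-OFF library (grey) lies below it and every MYC-ON library (red) above it, and SHEP lies higher than SKNAS in both conditions.

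Over the course of the experiment the balance in SHEP MYC-ON drifted back. The mean log2 ratio of the 2 series was 2.17 at CT24 and 2.32 at CT32, then 1.76 at CT64 and 1.17 at CT76, while in MYC-OFF it was -0.45 at CT24 and between -1.03 and -0.75 from CT28 on. POLR3GL rose and POLR3G ended lower than it had been in mid-course. POLR3GL in MYC-ON went from 18.1 ± 2.28 TPM (SD, n = 8) over the first 4 time points to 27.9 ± 3.13 (SD, n = 8) over the last 4, when MYC-OFF stood at 28.7 ± 1.63 (SD, n = 8). POLR3G in MYC-ON went from 79.1 TPM at CT24 to 100.8 at CT52 and 62.1 at CT76 (means of the 2 series), and its linear trend was not called (-0.0005 ± 0.0595 per 24 h on the log2(TPM + 1) scale). In SKNAS MYC-ON, with 1 library at each time, the ratio ranged from 0.31 at CT24 to 1.61 at CT52 and stood at 0.48 at CT72. The medians of these 3 libraries were 3.09, 4.255 and 3.015, so time and library median cannot be told apart here.

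**Figure D3:**
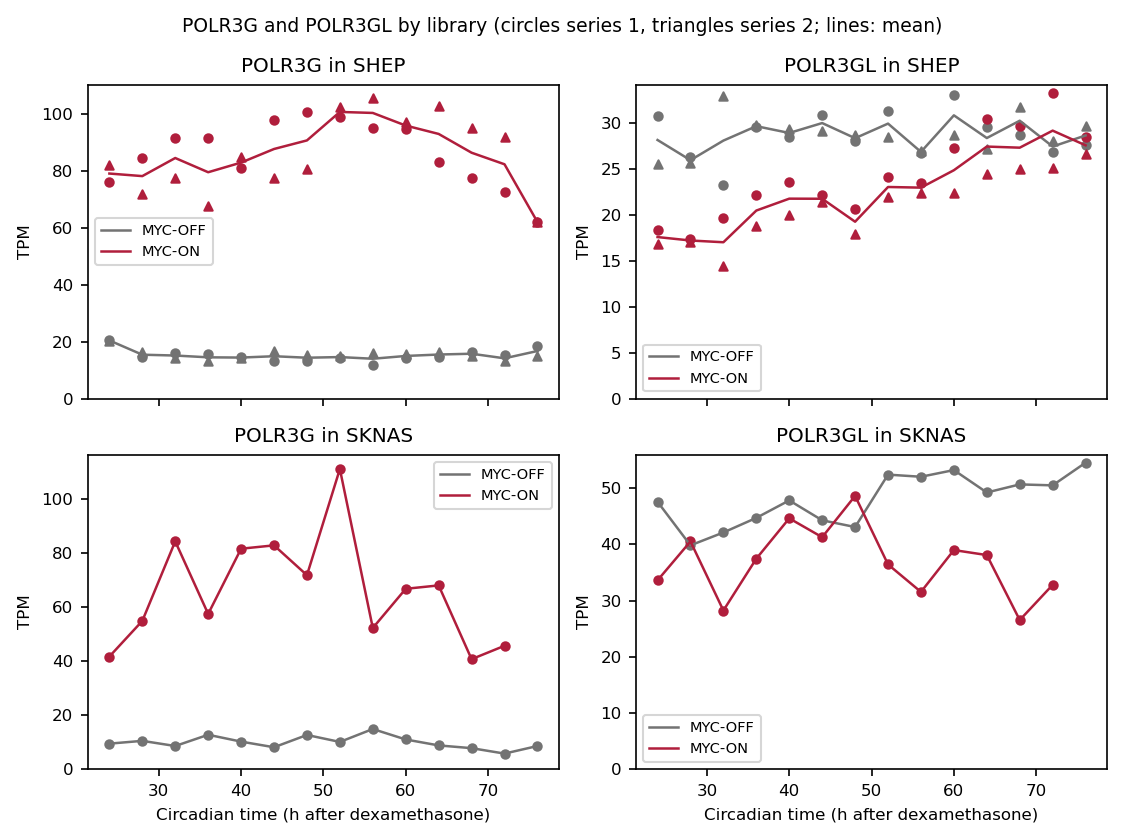
TPM of POLR3G (left) and POLR3GL (right) against circadian time in SHEP (top) and SKNAS (bottom), with points for libraries and lines for the mean at each time, MYC-OFF in grey and MYC-ON in red. POLR3G is higher in MYC-ON at every time point in both lines, and in SHEP the POLR3GL lines meet at the late time points, at 27.3 to 29.2 TPM in MYC-ON.

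The 6 Pol I factors had a median SHEP difference of 0.23, against 0.98 for the 3 Pol I subunits. TAF1A, TAF1C and TAF1D, subunits of the selectivity factor that recognises the ribosomal DNA promoter, rose in SHEP by 0.44 ± 0.0432, 0.16 ± 0.0575 and 0.38 ± 0.0652, and TAF1B, with 0.04 ± 0.0699, was not called. The rise of TAF1C was not called without either series, at 0.18 and 0.14. TAF1A, the largest of these changes, was at 11.8 to 17.6 TPM (median 15.0) in MYC-OFF and 16.2 to 30.7 (median 19.3) in MYC-ON, with overlapping ranges and a higher value in 28 of 28 pairs. RRN3, which links Pol I to the promoter complex, rose by 0.29 ± 0.0284, also in 28 of 28 pairs. UBTF, which binds along the ribosomal DNA and keeps it open, fell in SHEP by 0.16 ± 0.0581, with a lower value in 18 of 28 pairs. That fall was not called after median-of-ratios rescaling, which gave -0.11, with the library median as a covariate, at -0.05, or without the first series, at -0.09. In SKNAS TAF1D alone of the 6 was called, at 0.30 ± 0.116, and not with the covariate, at 0.11.

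GTF3A, which is TFIIIA and serves the gene of the smallest ribosomal RNA, was at 112 to 163 TPM (median 141) in SHEP MYC-OFF and 199.6 to 317 (median 239.6) in MYC-ON. The groups did not overlap, and the difference was 0.82 ± 0.0363 (limma adjusted p = 6.11e-25). In SKNAS its medians were 91.5 and 89.6 TPM, with a difference of -0.07 ± 0.091. Within TFIIIB, BRF1, the subunit for most Pol III genes, rose in SHEP by 0.51 ± 0.0518, from 11.1 to 20.3 TPM (median 13.7) to 13.7 to 27.8 (median 21.2). BRF2, which replaces BRF1 at promoters that lie upstream of the gene, fell by 0.17 ± 0.0564 in SHEP and by 0.35 ± 0.116 in SKNAS, at medians of 6.75 to 10.9 TPM over the 4 groups. Neither fall of BRF2 was called after median-of-ratios rescaling (-0.12 in SHEP and -0.01 in SKNAS), that in SHEP was also not called without either series (-0.20 and -0.13), and ADGRA2 on the other strand covers 60% of its exonic bases. BDP1, the scaffold of TFIIIB, had differences of 0.15 ± 0.0753 and -0.37 ± 0.259 and was not called in either line; in SHEP it was called with the covariate, at 0.34.

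Of the 6 TFIIIC genes, 4 rose in SHEP. GTF3C4 was at 10.7 to 18.4 TPM (median 15.7) in MYC-OFF and 17.2 to 36.7 (median 26.6) in MYC-ON, a difference of 0.73 ± 0.0485 that was positive in 28 of 28 pairs. GTF3C3, GTF3C2 and GTF3C5 rose by 0.59 ± 0.0652, 0.57 ± 0.0358 and 0.41 ± 0.0272. GTF3C1, the largest subunit, had a difference of 0.09 ± 0.0512 and GTF3C6, the smallest, one of -0.13 ± 0.0613, and neither was called. For GTF3C6 this average covers a difference that changed sign over circadian time, as given below. In SKNAS the called genes were GTF3C5, at 0.28 ± 0.0857 (not among the 13 libraries, at 0.18), and GTF3C6, at 0.70 ± 0.138. MAF1, which binds Pol III and represses it when growth signals fall, was at 92.7 to 106.6 TPM (median 98.8) in SHEP MYC-OFF and 74.5 to 122 (median 95.3) in MYC-ON. MAF1 was called in neither line, with differences of -0.06 ± 0.0329 for SHEP and -0.0018 ± 0.134 for SKNAS, and in SHEP the MYC-ON libraries spread over a wider range on both sides of the MYC-OFF libraries. After median-of-ratios rescaling MAF1 was called higher in SKNAS, at 0.37.

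Other polymerase genes were compared in the same way. Of the 7 subunit genes found only in Pol II, 4 rose in SHEP and POLR2A, the largest subunit, fell by 0.27, with a list median of 0.21; POLR2D was the largest change, at 1.16. Of 20 other genes of the Pol I and Pol III pathways, among them CD3EAP, ZNRD1 and TWISTNB, 14 rose in SHEP and 5 fell, with a median of 0.42. NOLC1, a nucleolar protein of ribosome assembly, rose by 1.76, SNAPC1, a subunit of the complex that recruits Pol III and Pol II to small nuclear RNA genes, by 0.94, TCOF1 by 0.77, SSB, which binds the ends of new Pol III transcripts, by 0.74, and TBP, a component of the promoter factors of all 3 enzymes, by 0.51. CAVIN1, also known as a Pol I transcript release factor, fell by 0.92, and SIRT7 by 0.43. In SKNAS 6 of the 20 were called higher and 2 lower, and 1 of the 7 Pol II genes was called higher.

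In SKNAS fewer members passed the test. There 11 of the 37 were called higher (29.7%, against 13.9% of 13886 genes tested) and 2 lower (5.41%, against 34.2%), and the members' median was 0.14, against -0.29 for all genes. A rise of at least 0.66 was found for 5 members (6.99% of all genes) and a fall of that size for none (23.8%). Among the 11 were POLR1C, POLR1D, POLR1E, POLR2F, POLR2H, POLR3G, POLR3K, GTF3C5, GTF3C6 and TAF1D, and those that fell were POLR3GL and BRF2. In POLR1C, POLR1E and POLR3G every MYC-ON library lay above every MYC-OFF library, which 2.32% of all genes did, and in no member was it the reverse (2.09%). The count depended on the treatment of the library medians. It was 27 higher and 2 lower with the library median as a covariate (28.3% and 25.9% of all genes), 21 higher and 2 lower among the 13 libraries with a median of at least 3.8, of which 3 are MYC-ON (20.7% and 25.9%), where POLR2L at -0.70 took the place of BRF2 (-0.29, not called) among those lower, and 25 higher and 0 lower after median-of-ratios rescaling (27.9% and 23.5%), which moved the median of all genes from -0.29 to 0.04 and that of the members to 0.50. POLR1B shows the spread behind this: in SKNAS it lay between 3.32 and 54.7 TPM in MYC-OFF and between 4.43 and 112 in MYC-ON, and its difference was 0.08 ± 0.41 as deposited, 1.15 with the covariate and 1.15 among the 13 libraries. POLR1A, at -0.08 as deposited, was at 0.77 with the covariate and 0.75 among the 13 libraries, and UBTF, at 0.24, was at 0.78 and 1.06.

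The spread of the SKNAS libraries was related to transcript length. Within MYC-OFF alone, where N-MYC-ER was inactive, the 4 libraries with a median under 3.8 had lower values than the other 10 for most members. A split by the library median lowers most genes by itself, and over 13857 tested genes the median difference was -0.82. Members differed widely around that value. The difference between the library sets was -2.65 for POLR1B, whose annotated main transcript has 7527 bases, and -2.12 for POLR1A with 12480 bases. It was 0.71 for GTF3C6 with 788 bases and 0.84 for POLR2L with 876. GTF3C1, with 7090 bases, was an exception at 0.03. Across the 37 members Spearman's rho between length and this difference was -0.80, and over 13857 tested genes with a length it was -0.54; these genes were measured in the same libraries and are not independent, so the values are a description. POLR3G, with 3290 bases, and POLR3GL, with 1178, were nearly level between these MYC-OFF library sets, at -0.06 and 0.13. Within SKNAS MYC-ON, POLR3G was at 84.4, 82.9 and 111 TPM in the 3 libraries with a median of at least 3.8. It was at 41.7, 52.3, 40.7 and 45.7 TPM in the 4 with a median under 3.3, and at 54.9 to 81.7 in the 6 between. The log2 ratio to POLR3GL was 1.58, 1.01 and 1.61 in those 3 and 0.31 to 0.73 in those 4. The median SKNAS change of the 18 shorter members was 0.26 as deposited and 0.28 with the covariate, and that of the 19 longer members was 0.08 and 0.66. The part of transcript length in the SKNAS changes was not tested.

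**Figure D4:**
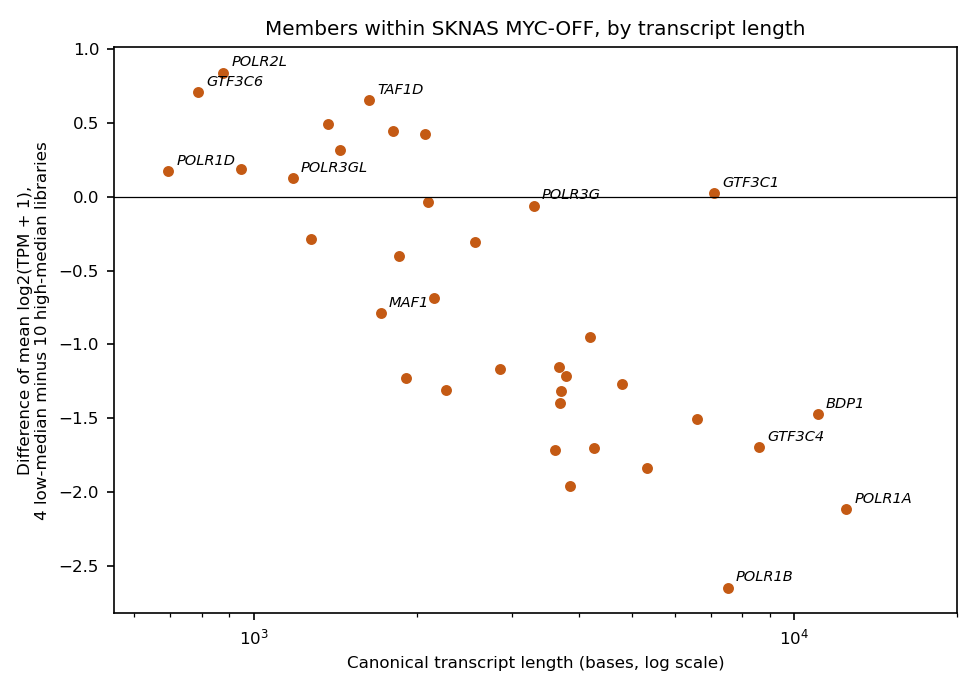
Each point is a member reported here, placed by the length of its annotated main transcript (log axis) and by the difference of mean log2(TPM + 1) between the 4 SKNAS MYC-OFF libraries with a median under 3.8 and the 10 with a median of at least 3.8. Long transcripts such as POLR1A and POLR1B lie lowest, at -2.12 and -2.65, and POLR3G lies close to 0.

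The response of 5 members differed between the lines in a limma interaction over all 83 libraries. A call needed an adjusted p of at most 0.05 and a difference of at least 0.66. That fit uses a single residual variance for both lines, although SKNAS libraries spread more widely. For the SKNAS change alone the SE was 0.41 for POLR1B, 0.343 for POLR1A, 0.27 for GTF3C3, 0.138 for GTF3C6 and 0.091 for GTF3A. Each is larger than the SE of the difference given below, so those SEs and adjusted p-values are too small. The change was smaller in SKNAS than in SHEP for POLR1B (-1.11 ± 0.273), GTF3C3 (-0.93 ± 0.195), GTF3A (-0.88 ± 0.0739) and POLR1A (-0.78 ± 0.242), which makes 10.8% of members against 16.1% of 14870 genes tested, and larger for GTF3C6 (0.83 ± 0.126), against 5.00% of genes. With the library median as a covariate GTF3A was the only one of these 5 still called, and UBTF was called higher at 0.85 (1 member each way, against 6.51% of genes higher and 7.42% lower). POLR1B was then at -0.23, POLR1A at -0.05, GTF3C3 at -0.37 and GTF3C6 at 0.61. After median-of-ratios rescaling the split turned to 4 higher (GTF3C6, POLR3K, POLR1C and UBTF) and 1 lower (POLR1B, at -0.83), against 8.88% of genes each way, and GTF3A, POLR1A and GTF3C3 were not called, at -0.60, -0.52 and -0.65. POLR1A was also not called without either SHEP series (-0.69 and -0.88). Levels between the lines were compared with the same thresholds. The lines were grown in separate series, so line and experiment cannot be told apart, in these levels or in the responses above. In MYC-OFF 4 members were higher in SKNAS (18.7% of all genes were) and 7 lower (31.8%), led by POLR2H at 1.91 ± 0.054 and by GTF3C2 and POLR1A at -1.17 ± 0.167 and -1.15 ± 0.209. In MYC-ON 5 were higher (15.8% of all genes) and 13 lower (43.6%), among them POLR1A at -1.96 ± 0.179 and GTF3A at -1.46 ± 0.0674. POLR3G differed by -0.61 and -0.45 in MYC-OFF and MYC-ON, under the 0.66 that a call needed. POLR3GL was higher in SKNAS in both conditions, by 0.72 ± 0.0464 and 0.70 ± 0.085. The split turned with the scaling. After median-of-ratios rescaling 8 members were higher and 3 lower in MYC-OFF (23.3% and 27.5% of genes), and 13 higher and 6 lower in MYC-ON (27.5% and 29.5%). With the covariate 8 were higher and 4 lower in MYC-OFF (22.2% and 24.2% of genes), and 10 higher and 7 lower in MYC-ON (21.8% and 24.5%). As shares of the 37 members, the higher calls were 21.6% in MYC-OFF under both settings, close to those of all genes.

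The members changed little over circadian time in SHEP MYC-OFF and more in MYC-ON. In MYC-OFF the linear trend was called for BRF1 alone, at -0.16 ± 0.0506 per 24 h (2.70% of members, against 5.18% of 14264 genes falling and 2.97% rising), and not without either series. In MYC-ON 17 members fell (45.9%, against 30.6% of 14261 genes) and 6 rose (16.2%, against 17.1%). The trend differed between the conditions for 18 members, downward in MYC-ON for 14 (37.8%, against 24.6% of 14362 genes) and upward for 4 (10.8%, against 14.6%). Of these 18 differences, 10 were still called without the second series and 15 without the first. Among the steepest falls in MYC-ON per 24 h were those of GTF3C6 (-0.53 ± 0.0526), POLR3K (-0.51 ± 0.0373), POLR2L (-0.50 ± 0.0854) and POLR2F (-0.44 ± 0.0444), all genes for small subunits. POLR3K in MYC-ON went from 40.5 ± 4.3 TPM over the first 4 time points to 22 ± 2.84 over the last 4 (SD, n = 8 each), against 26.8 ± 2.0 and 25.2 ± 1.33 in MYC-OFF. Over the same time points the mean of GTF3C6 went from 133.8 to 74.6 TPM, against 116.6 and 105.3 in MYC-OFF. POLR2L went from 303.8 to 182.9 TPM, against 242.3 and 253.6, and POLR2F from 128.3 to 78.0, against 93.5 and 87.4. In all of these genes the difference of the means between MYC-ON and MYC-OFF changed sign. UBTF fell in MYC-ON from 65.4 ± 4.08 TPM to 46.3 ± 14.4 (SD, n = 8 each), and in MYC-OFF it was at 62.2 ± 3.45 and 61.8 ± 3.79. Upward in MYC-ON went TAF1D (0.39 ± 0.0538 per 24 h), POLR3GL (0.34 ± 0.0324), GTF3C3 (0.23 ± 0.0583), TAF1A (0.20 ± 0.0496), POLR1D (0.17 ± 0.0272) and POLR3D (0.16 ± 0.0404). Several small nucleolar RNA genes lie on the strand and in the exons of TAF1D, whose MYC-ON level went from 108 ± 9.04 to 173 ± 30.5 TPM (SD, n = 8 each). Without the second series 3 members rose in place of 6, and the trend of POLR3C, called at -0.24, was 0.10 without the first. The library medians of SHEP MYC-ON were 4.12 in both series at CT24 and 3.94 and 3.97 at CT76; their part in the trends was not tested.

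**Figure D5:**
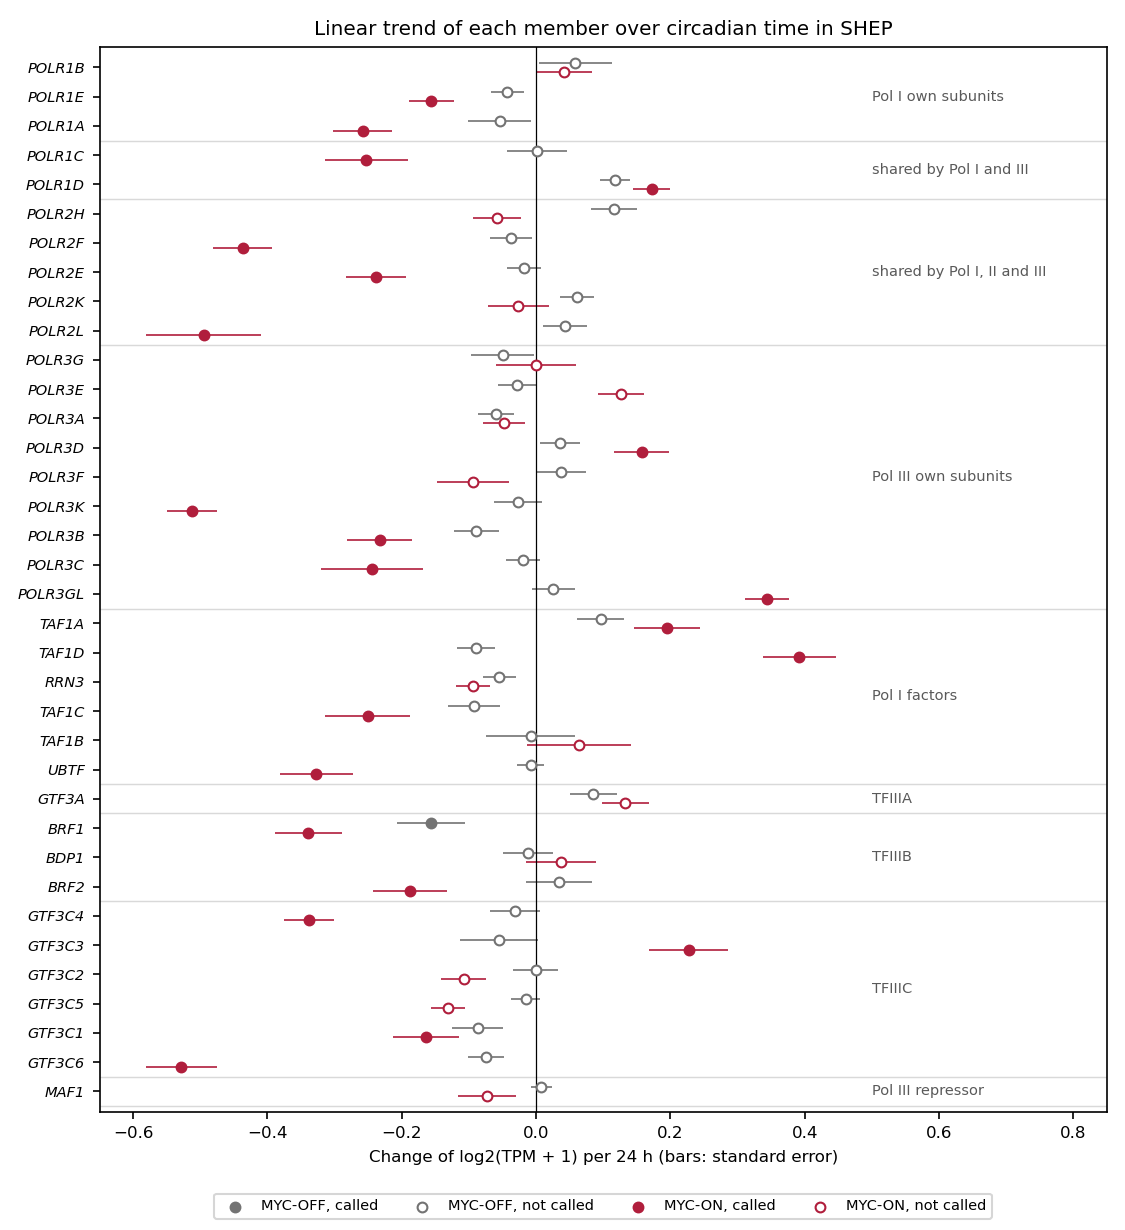
Linear change of log2(TPM + 1) per 24 h of circadian time for each member reported here in SHEP MYC-OFF (grey) and MYC-ON (red), 28 libraries each, with the standard error as bars and filled points for called trends. The MYC-OFF points stay close to 0, and the MYC-ON points spread from -0.53 for GTF3C6 to 0.39 for TAF1D.

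A 24 h rhythm was called for 1 member, GTF3A in SHEP MYC-OFF, with an amplitude of 0.14 on the log2 scale and a peak 15.6 h into the cycle as counted from dexamethasone (limma adjusted p = 0.00944); 13 of 14264 genes (0.0911%) were called there, and 4 members had an unadjusted p under 0.05 (10.0% of all genes). Its TPM rose and fell in both series up to CT64. The values were 117.3 and 111.8 at CT28, 163.3 and 153.1 at CT40, 135.1 and 123.4 at CT52 and 157.2 and 142.9 at CT64. At CT48 the series parted, at 145.7 and 113.5. By CT76, 24 h after CT52, they were at 143.6 and 144.6, so the fall to the CT52 level was not repeated. In SHEP MYC-ON no rhythm was called for GTF3A or another member, among 2 genes called (0.0140%) of 14261, and 2 members had an unadjusted p under 0.05 (8.78%). GTF3A there lay above every MYC-OFF library at all times, and its second series went from 209.7 TPM at CT24 to 294.7 at CT76, while the first was at 239.6 and 247.0. In SKNAS limma called no gene rhythmic in either condition, with 58 of 14119 genes (0.411%) in MYC-OFF and 32 of 13365 (0.239%) in MYC-ON at an unadjusted p under 0.05, none of them members. Genes without any rhythm would pass 0.05 more often than this. The SKNAS fit, with 1 library at each time, therefore cannot show that rhythms were absent.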

How the data were processed

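Polyadenylated RNA of 83 libraries was sequenced. According to the study's methods, the authors quantified transcripts with Salmon 1.3.0 on Gencode release 35 (GRCh38), summed them to genes with Tximport and took symbols from Ensembl release 101. The deposited values are TPM, which sum to 1000000 in every library, so they do not give the depth of each library and count tests were not used. Whether counting used the strand is not given in the sources used here. All per-sample columns were used (0 left out), and no libraries were identical.

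Here log2(TPM + 1) was fitted with limma 3.58.1 (R 4.3.3; empirical Bayes with a mean-variance trend) over genes with a mean of at least 1 TPM, with circadian time as a factor. Rhythm was fitted as a 24 h cosine and sine with a linear trend. A call needed an adjusted p (Benjamini-Hochberg, all genes tested) of at most 0.05 and a log2 difference of at least 0.15, or 0.66 between lines. The 2 series of SHEP share numbers between conditions; the difference between series in MYC-OFF and in MYC-ON correlated at r = 0.49 across genes. Ratios were tested by two-sided permutation (Python 3.11.15, SciPy 1.17.1). Scripts were tested on simulated data. A second SKNAS series and another cell line were not analysed here.

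Some items are not reported here by name; counts cover all 37 members. Members and lists were chosen with earlier results of these data known. Named genes were POLR3G, POLR3GL, MAF1 and, for values by library, the member with the largest SHEP change in each role list; other members are given by their change. A symbol listed more than once was read from its entry with the highest mean. Positions and transcript lengths are from Gencode release 44. Alternatives were a pseudocount of 0.1, no filter, median-of-ratios rescaling, no mean-variance trend, the library median as covariate (for SHEP added after seeing the data), a replicate block, series means, and leaving out a series or the SKNAS libraries with low medians.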

Additional observations from a re-analysis of the deposited data

Results flagged for a closer look

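The N-MYC-ER effect differed between SKNAS and SHEP for 5 members by a test of the difference itself: POLR1B (-1.11 on the log2 scale), GTF3C3 (-0.93), GTF3A (-0.88), POLR1A (-0.78) and GTF3C6 (0.83). Lower calls made up 10.8% of members, against 16.1% of all genes tested, and higher calls 2.70%, against 5.00%. With the library median as a covariate GTF3A alone of these 5 was still called. The SEs of this test are too small for these members, as given above.

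The linear trend per 24 h in SHEP differed between MYC-ON and MYC-OFF for 18 members, also by a test of the difference. Among them it was lower in MYC-ON for the Pol III subunits POLR3K (-0.49) and POLR3C (-0.23), and for the shared subunits POLR2L (-0.54), POLR2F (-0.40), POLR1C (-0.26), POLR2E (-0.22) and POLR2H (-0.17). It was also lower for POLR1A (-0.20), for the Pol I factor UBTF (-0.32), for the TFIIIB genes BRF2 (-0.22) and BRF1 (-0.18), and for the TFIIIC genes GTF3C6 (-0.45) and GTF3C4 (-0.31). It was higher in MYC-ON for TAF1D (0.48), POLR3GL (0.32), GTF3C3 (0.28) and POLR3E (0.16). Over all members 14 trends were lower in MYC-ON (37.8%, against 24.6% of all genes tested). The 4 that were higher made up 10.8%, against 14.6%. Without the second series 10 of the 18 differences were still called in the same direction, and without the first series 15 were.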

How the results depend on the processing

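In SHEP the count of members called higher stayed between 21 and 26 under every alternative run. The 3 called lower became 1 after median-of-ratios rescaling, 1 with the library median as a covariate and 1 with series means as replicates, and ranged from 1 to 3 when a series was left out. With a replicate block 24 were higher and 4 lower, POLR3C being added at -0.16, and no other call of the N-MYC-ER effect in SHEP changed. Reversed values, for members not called, were POLR3B at 0.029 with the covariate and POLR2L at 0.013 after rescaling. With a series left out TAF1B ranged from -0.026 to 0.111, POLR2K from -0.021 to 0.075, POLR3C from -0.402 (called) to 0.086 and POLR2L from -0.156 to 0.089.

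In SKNAS the 11 called higher became 25 after rescaling, 27 with the covariate and 21 in high-median libraries, and the 2 called lower became 0 after rescaling. After rescaling the reversed values were POLR1A 0.26, TAF1C 0.17, TAF1B 0.29, GTF3C3 0.018, GTF3A 0.30, POLR2K 0.22 and MAF1 0.37. Of these MAF1 alone was called. With the covariate the reversed values were POLR1A 0.77, TAF1C 0.47, TAF1B 0.52, GTF3C3 0.34, BDP1 0.27, POLR2L -0.23, MAF1 0.20 and POLR3C 0.074. Of these POLR1A, TAF1C, TAF1B, GTF3C3 and BDP1 were called. In high-median libraries the reversed values were POLR1A 0.75, GTF3C1 -0.047, POLR2E -0.045, TAF1C 0.12, TAF1B 0.56, GTF3C3 0.37, GTF3A 0.16, BDP1 0.36, POLR2K 0.032, POLR2L -0.704 and POLR3C 0.23. Of these POLR1A, TAF1B and POLR2L were called. No paired analysis was fitted for SKNAS beyond the pairs by circadian time.

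For the difference between the lines, rescaling gave 4 higher and 1 lower, and the covariate 1 higher and 1 lower. For levels in MYC-OFF rescaling gave 8 higher (23.3% of all genes) and 3 lower (27.5%), and the covariate 8 (22.2%) and 4 (24.2%). In MYC-ON rescaling gave 13 higher (27.5%) and 6 lower (29.5%), and the covariate 10 (21.8%) and 7 (24.5%); with the covariate POLR3E (0.18), TAF1B (0.22), POLR1B (0.21), BDP1 (0.34) and POLR3A (0.048) reversed. The MYC-OFF trend was called for 0 members after rescaling and for 0 with either series left out. In MYC-ON 3 to 7 trends rose and 13 to 14 fell with a series left out, and 2 to 6 and 11 to 12 differed between conditions; the trend of POLR3C ranged from -0.590 to 0.103 in MYC-ON and from -0.561 to 0.111 as the difference, reversing without the first series. The cause of these shifts was not tested. The rise of the POLR3G to POLR3GL log2 ratio lay between 2.75 and 2.92 in SHEP and between 2.95 and 3.11 in SKNAS under every alternative, the unpaired test without a replicate block included.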
